A study of Mus musculus with 8 samples.

Results

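The genes described here encode the enzymes of glycolysis, its transporters and regulators, the sensors of low oxygen and a set of hypoxia-inducible targets. They were taken by gene symbol from a list of 34 names, and all 34 were among the 48490 genes measured. Of these, 32 of the 12888 genes that passed a filter on low values could be tested, and the other 2 (Egln3 and Car9) were too low. Glycolysis splits glucose into pyruvate in the cytosol, and lactate dehydrogenase turns pyruvate into lactate when it is not passed to mitochondria. When oxygen is low, prolyl hydroxylases stop marking the HIF alpha subunits for degradation, and HIF then switches on glycolytic and stress-response genes through short DNA elements. The growth plate is a poorly vascularised tissue in which Hif1a is needed for chondrocyte survival, and osteoblasts draw much of their energy from glycolysis.

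The cells were descendants of hypertrophic chondrocytes, which are swollen cells bordering the bone marrow side of the growth plate, from mice with altered β-catenin, which carries the canonical Wnt signal to the nucleus. GoF mice (Col10a1Cre;Rosa26-Tdtomato;Ctnnb1-exon3 Δ/+, 2 libraries) lacked exon 3 of Ctnnb1 on 1 allele, which removes the part of β-catenin that marks it for degradation. LoF mice (Col10a1Cre;Rosa26-Tdtomato;Ctnnb1Δ/Δ, 4 libraries) carried a Ctnnb1 deletion on both alleles. WT mice (Col10a1Cre;Rosa26-Tdtomato, 2 libraries) carried the Cre and the reporter that all 3 groups shared. The Cre was driven by Col10a1, a collagen gene of hypertrophic chondrocytes, so recombination and red fluorescence marked cells that expressed Col10a1 or descended from such cells. Each library was Smart-seq2 cDNA of 70 fluorescent cells picked by hand from the proximal tibia at postnatal day 5. The title of the study asks how β-catenin in these cells bears on the choice between fat and bone cell fates. Whether libraries of a group came from different mice is not stated in the labels. The p-values therefore cover only variation between libraries, and this may be technical.

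The deposited values are FPKM, fragments scaled to transcript length and to the mapped total of the library, so levels can be set side by side between genes. Between 12587 and 13944 genes were above 0 per library, and read counts per library are unknown. Ctnnb1 was at 72.0 and 86.7 FPKM in the GoF libraries, 67.3 to 81.1 FPKM in the LoF libraries, and 137 and 146 FPKM in the WT libraries. The gene-level value does not separate the deleted exons from the rest. Axin2, a Wnt target, was at 5.26 and 2.80 FPKM in GoF, while every LoF library listed it at 0 and the WT libraries held 0 and 0.323 FPKM. Col10a1 was at 190 and 177 FPKM in GoF, 9.61 to 114 FPKM in LoF, and 6.24 and 20.5 FPKM in WT. Summed FPKM of 6 adipocyte markers was 0.131 to 4.44 in GoF, 510 to 811 in LoF and 16.5 to 111 in WT, with Cidec at 0 throughout. Lpl alone made up most of this sum in each LoF and WT library, at 386 to 595 FPKM in LoF. Adipoq was at 0.567 FPKM in LoF library 3, while Fabp4 and Cd36 were higher in every LoF library than in every GoF library. Summed FPKM of 6 pericyte and smooth muscle markers was 3.94 to 4.84 in GoF, 35.2 to 69.7 in LoF and 22.6 to 34.7 in WT, with Myh11 at 0 throughout. Both sums were lower in every GoF library than in every LoF library. For 5 cartilage markers the sums were 63.4 to 127 in GoF, 19.2 to 70.0 in LoF and 13.6 to 14.4 in WT. For 8 erythroid markers they were 896 to 1838 in GoF, 76.0 to 2274 in LoF and 2559 to 10573 in WT. Endothelial markers (6 genes) stayed between 0.334 and 6.83 except in LoF library 3, where they summed to 57.1. Muscle markers summed to at most 7.33 in any library, with Ckm, Myh8 and Tnnc2 at 0 throughout. Myeloid and osteoclast markers (9 genes) summed to 103 to 111 in GoF, 69.5 to 86.3 in LoF and 69.2 to 81.9 in WT, with Dcstamp and Ocstamp at 0 throughout. Ctsk (76.5 and 77.8 FPKM) and Acp5 (22.3 and 17.6 FPKM) made up most of the GoF sums. Ptprc, Csf1r and Adgre1 were at most 0.586 FPKM in GoF, and Lyz2 and Cd68 overlapped between GoF and LoF. Y-linked transcripts were present in both GoF libraries and in LoF 2 and 3, and Xist was present instead in LoF 1 and 4 and in both WT libraries. Sex and genotype therefore cannot be told apart between GoF and WT. In such pools, fewer cells of a type and less RNA per cell cannot be told apart either.

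GoF libraries differed from LoF libraries at 4 of the 17 enzyme genes of glycolysis, counted from hexokinase to lactate dehydrogenase. Pyruvate kinase, aldolase A and lactate dehydrogenase B transcripts were higher in GoF, and so was the hypoxia target Ndrg1. Transcripts of the platelet phosphofructokinase Pfkp and of the HIF alpha subunit gene Epas1 were lower in GoF. In all, 4 of 32 tested genes rose and 2 fell in GoF against LoF (limma, Benjamini-Hochberg adjusted p under 0.05). Among all tested genes, 5.97% were called higher and 5.68% lower, or 11.6% in both directions. The number of listed genes called higher was 12.5% of those tested and the number called lower was 6.25%. The list was chosen with earlier results of these data known, so these shares only describe it. The median log2 fold change was 0.46 over the 32 genes, against -0.17 over all tested genes. With median ratio scaling these medians were 0.62 and -0.05, and with quantile normalization 0.48 and -0.03. Libraries of the 2 groups did not overlap for 14 of the 32 genes (43.8%), against 33.5% of all tested genes.

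**Figure D1:**
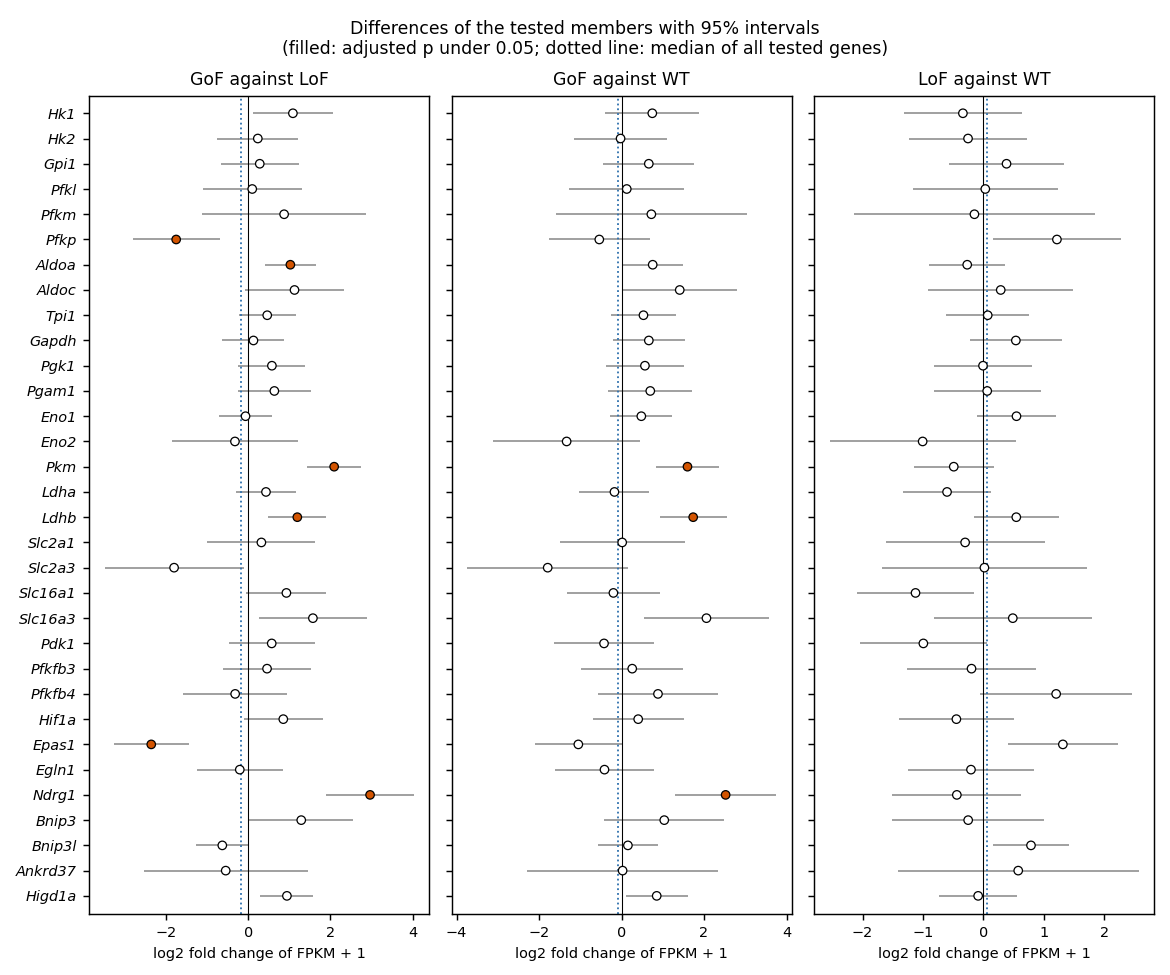
Log2 fold change of FPKM + 1 for each of the 32 tested genes (horizontal axis) with its 95% interval, for GoF against LoF, GoF against WT and LoF against WT; filled points passed an adjusted p of 0.05 and the dotted line is the median of all tested genes. For GoF against LoF 6 genes are filled, Ldhb, Ndrg1 and Pkm are filled for GoF against WT, and 0 are filled for LoF against WT.

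Pkm encodes the pyruvate kinase that makes pyruvate and ATP in the last step of glycolysis (chr9:59656368-59679375, mm10). It had 209 and 251 FPKM in the GoF libraries, 51.3, 36.0, 66.1 and 65.0 FPKM in the LoF libraries, and 70.1 and 80.5 FPKM in the WT libraries. Both GoF libraries stood above the other 6, and every LoF library stood below both WT libraries. The log2 fold change of GoF against LoF was 2.09 ± 0.30 (SE; 95% interval 1.43 to 2.75; limma, adjusted p = 0.00195), a ratio of means of 4.22. It was called under all 17 alternative settings. Gene-level FPKM does not tell its M1 and M2 splice forms apart.

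Aldoa encodes aldolase A, which splits fructose bisphosphate into triose phosphates (chr7:126795234-126809108). Its level was 163 and 174 FPKM in GoF, 66.4, 64.5, 99.2 and 108 FPKM in LoF, and 99.1 and 99.6 FPKM in WT. The GoF values were highest, while LoF libraries 3 and 4 lay close to WT and LoF libraries 1 and 2 below it. The log2 fold change of GoF against LoF was 1.02 ± 0.28 (SE; limma, adjusted p = 0.0421), and 11 of 17 alternative settings did not call it (adjusted p 0.00559 to 0.234). Leaving out either GoF library, either WT library, LoF library 1 or LoF library 2 lost the call (limma, adjusted p 0.0675 to 0.234). The minor aldolase gene Aldoc was at 3.25 and 2.84 FPKM in GoF, 0 to 1.52 FPKM in LoF, and 0 and 1.31 FPKM in WT, and did not pass the test.

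Ldhb encodes the lactate dehydrogenase subunit typical of oxidative tissues such as heart (chr6:142490249-142507957). It was measured at 53.7 and 67.7 FPKM in GoF, at 24.4, 29.2, 19.3 and 32.2 FPKM in LoF, and at 15.2 and 19.9 FPKM in WT. GoF did not overlap either of the other groups, and LoF library 3 fell within the WT range. The log2 fold change was 1.19 ± 0.32 for GoF against LoF (SE; limma, adjusted p = 0.0367), with 12 of 17 alternatives not calling it (adjusted p 0.0172 to 0.276). Without any 1 library other than LoF library 4 the call was lost (limma, adjusted p 0.0529 to 0.276). Ldha, the subunit typical of muscle and hypoxic cells, had 274 and 267 FPKM in GoF, 168, 165, 162 and 359 FPKM in LoF, and 302 and 308 FPKM in WT. LoF library 4 was the highest of all 8 and the other LoF libraries were the lowest, and Ldha did not pass the test in any comparison.

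Pfkp encodes the platelet isoform of phosphofructokinase, the committing and most regulated step of glycolysis (chr13:6579768-6648777). Its level was 3.21 and 0.786 FPKM in GoF, 11.1, 6.82, 8.30 and 7.41 FPKM in LoF, and 3.35 and 2.66 FPKM in WT. All LoF libraries stood above all GoF and WT libraries. The log2 fold change of GoF against LoF was -1.76 ± 0.47 (SE; limma, adjusted p = 0.0399), and 15 of 17 alternatives did not call it (adjusted p 0.0330 to 0.361). The call was lost without any 1 of the 8 libraries (limma, adjusted p 0.0563 to 0.361). The liver isoform gene Pfkl had 11.6 and 8.60 FPKM in GoF, 4.83 to 21.8 FPKM in LoF, and 12.5 and 6.56 FPKM in WT. The muscle isoform gene Pfkm had 8.31 and 5.99 FPKM in GoF, 0 to 13.7 FPKM in LoF, and 5.88 and 2.48 FPKM in WT. For both, the LoF libraries spanned the range of the other groups, with LoF library 3 the highest.

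The promoters of Pfkp, Aldoa and Ldhb are shown because these genes were called in GoF against LoF and had upstream sequence free of annotated exons over at least 200 bases. They are RefSeq sequences of GRCm38.p6, at chr13:6648778-6649021 for Pfkp, chr7:126799255-126799504 for the second of the RefSeq start sites of Aldoa, and chr6:142507958-142508207 for Ldhb. All are on the minus strand, printed 5′ to 3′ toward the gene, with capitals marking the core of the hypoxia response element (ACGTG or GCGTG, or its reverse complement CACGT or CACGC).
Pfkp: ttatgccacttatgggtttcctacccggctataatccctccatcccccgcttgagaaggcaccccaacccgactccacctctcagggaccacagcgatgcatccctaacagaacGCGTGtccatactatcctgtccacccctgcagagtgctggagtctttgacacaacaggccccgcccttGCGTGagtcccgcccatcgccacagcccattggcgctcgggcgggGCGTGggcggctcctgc
Aldoa: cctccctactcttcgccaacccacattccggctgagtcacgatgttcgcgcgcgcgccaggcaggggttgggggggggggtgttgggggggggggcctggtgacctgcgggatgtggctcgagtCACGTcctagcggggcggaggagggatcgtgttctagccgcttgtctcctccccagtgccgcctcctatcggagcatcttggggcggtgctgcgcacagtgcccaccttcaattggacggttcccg
Ldhb: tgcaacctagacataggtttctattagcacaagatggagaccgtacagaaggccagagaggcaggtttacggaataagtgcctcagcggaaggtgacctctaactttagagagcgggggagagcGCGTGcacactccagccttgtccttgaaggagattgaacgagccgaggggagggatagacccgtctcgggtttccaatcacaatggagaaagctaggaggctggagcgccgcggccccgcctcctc
Pfkp held 3 copies of the core, and Aldoa and Ldhb held 1 each in the windows shown. RefSeq promoter entries were matched for 30 of the 34 genes (all but Slc2a3, Epas1, Ndrg1 and Bnip3l), and 27 of these (90.0%) held the core on either strand in the 250 bases before a start, against 41.5% of all 27025 genes with an entry. The listed genes' windows also had a median GC content of 61.6%, against 52.4% over all windows, and the core contains a CG pair. The 3 without the core were Gpi1, Tpi1 and Eno2, none of which passed the test, and most of the 27 genes with it were not called either. The Wnt-linked TCF/LEF core (CTTTGAA or CTTTGAT, either strand) was found in Car9 alone among the 30 genes (3.33%), against 8.63% of all genes. ACGTG also lies inside the E-box CACGTG, and a match is a description of letters only.

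The other enzymes of the pathway did not pass the test in GoF against LoF. Gpi1, which isomerises glucose phosphate, had 76.0 and 79.4 FPKM in GoF, 34.9 to 116 FPKM in LoF, and 40.0 and 59.5 FPKM in WT. Tpi1, which interconverts the triose phosphates, had 80.1 and 100.3 FPKM in GoF, 48.4 to 89.2 FPKM in LoF, and 63.4 and 60.2 FPKM in WT. GoF library 2 was the highest of 8 for Tpi1, and LoF library 3 the highest for Gpi1. Gapdh, the dehydrogenase often used as a reference gene, had 105 and 137 FPKM in GoF, 78.3, 81.4, 154 and 148 FPKM in LoF, and 70.9 and 80.4 FPKM in WT. Pgk1, the first ATP-making kinase of the pathway, had 68.9 and 88.0 FPKM in GoF, 29.8 to 74.0 FPKM in LoF, and 60.3 and 45.3 FPKM in WT. These 2 genes were above both WT libraries in both GoF libraries, and for Gapdh LoF libraries 3 and 4 were higher still. Pgam1, the phosphoglycerate mutase, had 88.0 and 68.8 FPKM in GoF, 31.2 to 83.6 FPKM in LoF, and 52.4 and 43.3 FPKM in WT. Eno1, the main enolase, had 138 and 122 FPKM in GoF, 105 to 189 FPKM in LoF, and 94.5 and 91.1 FPKM in WT. Every GoF and LoF library exceeded both WT libraries for Eno1. The neuronal enolase gene Eno2 was listed at 0 in both GoF libraries and in 3 of 4 LoF libraries, with 1.46 FPKM in LoF library 4 and 5.34 and 0 FPKM in WT. Gapdh, Pgk1, Eno1, Ldha and other abundant enzymes have processed pseudogenes with which reads can be shared, which makes their values uncertain.

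Hexokinases catalyse the first step. Hk2, the insulin- and hypoxia-responsive form, had 11.0 and 12.6 FPKM in GoF, 6.18 to 15.8 FPKM in LoF, and 16.6 and 8.58 FPKM in WT. Hk1, the housekeeping form, had 4.45 and 4.22 FPKM in GoF, 1.02 to 2.08 FPKM in LoF, and 1.74 and 2.70 FPKM in WT. Both GoF libraries were above the other 6 for Hk1, with a log2 fold change of 1.09 ± 0.44 against LoF that did not pass (SE; limma, adjusted p = 0.157). Hk1 overlaps an annotated antisense gene, and the reads of the pair cannot be told apart.

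**Figure D2:**
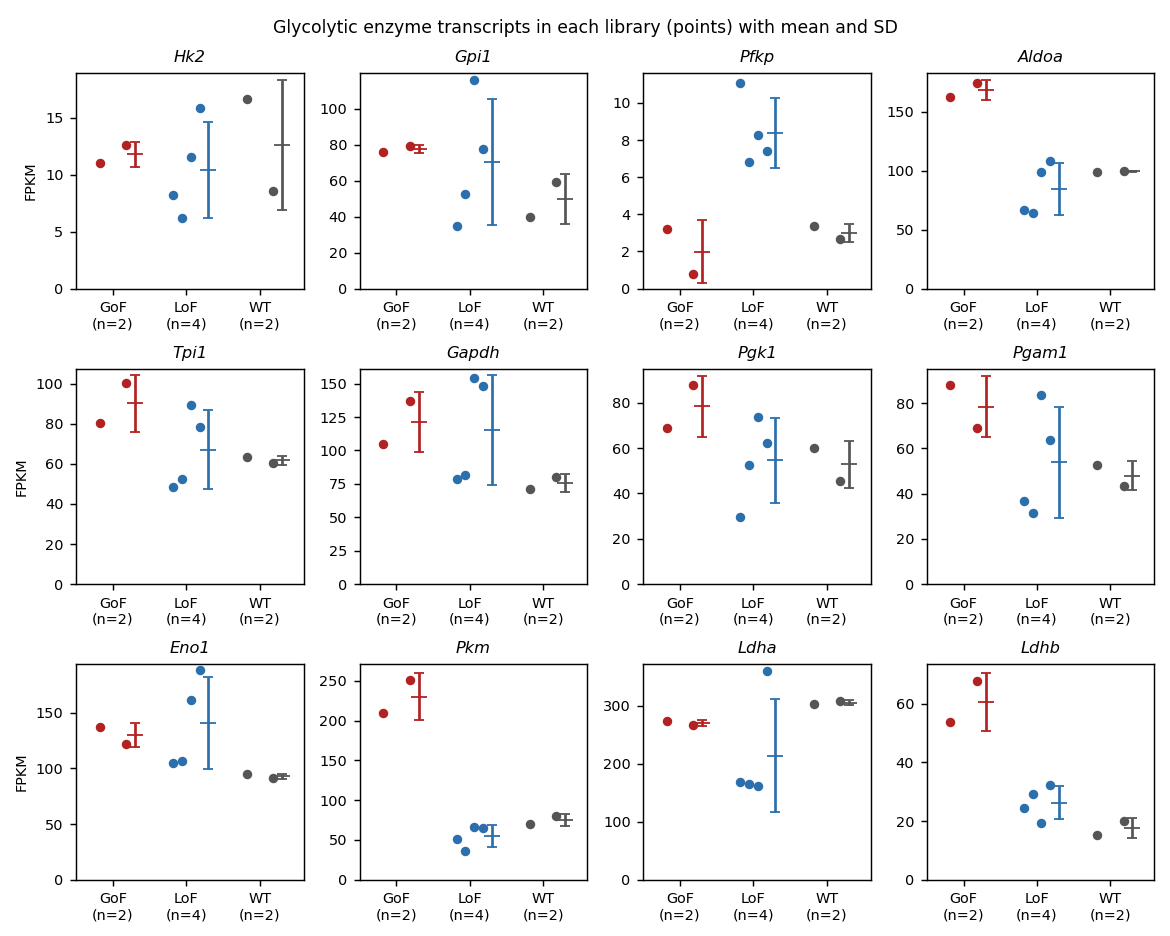
FPKM of 12 glycolytic enzyme genes in each library (points) by group, with the mean and SD beside them (GoF n = 2, LoF n = 4, WT n = 2); each panel has its own linear axis from 0. GoF stands above all other libraries for Aldoa, Pkm and Ldhb, Pfkp is highest in LoF, and the LoF points spread widely for Gpi1, Gapdh, Eno1 and Ldha.

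Summed over the 17 enzymes, transcript levels were 1298 and 1390 FPKM in GoF, 674, 694, 1082 and 1226 FPKM in LoF, and 914 and 912 FPKM in WT. The means were 1344 ± 65.3 in GoF, 919 ± 278 in LoF and 913 ± 1.14 in WT (SD, n = 2, 4 and 2). The pathway's share of all FPKM was 0.367% and 0.364% in GoF, 0.202% to 0.351% in LoF, and 0.281% and 0.265% in WT. GoF was above the other groups on both scales, and LoF varied most. On these 2 scales, the gap to LoF library 4 depended on Pkm, at 209 and 251 FPKM in GoF and 65.0 FPKM in that library. Without Pkm, LoF library 4 was above both GoF libraries on both scales. Dividing by median ratio size factors (1.24 for LoF library 4, 0.912 and 1.00 for the GoF libraries) reversed this order. By step, lactate dehydrogenases were the most abundant, with a mean of 283 ± 81.1 FPKM over all 8 libraries (SD). Hexokinases (13.7 ± 3.89 FPKM) and phosphofructokinases (21.4 ± 9.95 FPKM) were the least abundant. The pyruvate kinase step, which Pkm alone makes up, was at 230 ± 29.4 FPKM in GoF, 54.6 ± 14.1 FPKM in LoF and 75.3 ± 7.29 FPKM in WT.

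The regulators and transporters did not pass the test in any comparison. Pdk1, a kinase that blocks entry of pyruvate into mitochondria, had 8.66 and 7.06 FPKM in GoF, 2.31 to 8.36 FPKM in LoF, and 9.49 and 12.4 FPKM in WT. The WT libraries were the highest of the 8. Pfkfb3 and Pfkfb4 make the activator of phosphofructokinase and were low. Pfkfb3 had 1.54 and 3.55 FPKM in GoF, 0.866 to 2.23 FPKM in LoF, and 2.39 and 1.39 FPKM in WT. Pfkfb4 had 0.296 and 2.66 FPKM in GoF, 0.743 to 2.95 FPKM in LoF, and 0 and 0.397 FPKM in WT. The 4 LoF libraries lay above both WT libraries for Pfkfb4 and below both for Pdk1.

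Glucose entry was represented by low transcripts. Slc2a1, the common glucose transporter, had 3.27 and 2.31 FPKM in GoF, 0.820 to 5.09 FPKM in LoF, and 4.65 and 1.45 FPKM in WT. Slc2a3, a high-affinity glucose transporter, was listed at 0 in both GoF libraries, with 1.02, 2.28, 2.26 and 5.94 FPKM in LoF and 8.14 and 0.312 FPKM in WT. It was the only transporter at 0 in a whole group, and it passed only under a pseudocount of 0.1, for GoF against LoF. Slc16a1, a monocarboxylate transporter of lactate and pyruvate, had 6.28 and 4.72 FPKM in GoF, 2.15 to 2.73 FPKM in LoF, and 4.56 and 8.86 FPKM in WT. Slc16a3, the lactate exporter of glycolytic cells, had 7.93 and 3.17 FPKM in GoF, 0.807, 0.248, 1.18 and 2.62 FPKM in LoF, and 1.15 and 0 FPKM in WT. Every LoF library was below both GoF libraries for Slc16a1 and Slc16a3, and below both WT libraries for Slc16a1. The log2 fold change of Slc16a3 in GoF against LoF was 1.57 ± 0.59 (SE; limma, adjusted p = 0.124).

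Among the oxygen-sensing genes, Epas1 alone passed the test, in GoF against LoF. It encodes HIF-2 alpha (chr17:86753907-86833410) and is known for high expression in endothelium and adipose tissue. Epas1 had 1.39 and 1.89 FPKM in GoF, 11.4, 18.1, 9.95 and 11.8 FPKM in LoF, and 5.35 and 3.65 FPKM in WT. The 3 groups did not overlap, with LoF highest and GoF lowest. Epas1 fell in GoF against LoF by 2.36 ± 0.41 on the log2 scale (SE; 95% interval -3.28 to -1.45; limma, adjusted p = 0.00533). The call was lost only without GoF library 1, with an adjusted p of 0.0699 in limma (0.00541 to 0.0699 over 17 alternatives). Adipocyte and pericyte marker sums were higher in LoF than in GoF in all libraries. Summed endothelial markers were 0.541 to 1.19 FPKM in GoF, 0.564 to 57.1 FPKM in LoF and 0.334 to 0.549 FPKM in WT. The part of these 3 cell types in the Epas1 difference was not tested.

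Hif1a encodes the broadly expressed HIF-1 alpha (chr12:73901375-73947530). It had 53.3 and 52.3 FPKM in GoF, 30.9, 45.5, 13.6 and 35.5 FPKM in LoF, and 44.9 and 35.1 FPKM in WT. Both GoF libraries were above the other 6, and LoF library 3 was lowest, but no comparison passed (GoF against LoF, log2 fold change 0.85 ± 0.43 SE; limma, adjusted p = 0.255). Egln1, the main prolyl hydroxylase acting on HIF, had 1.34 and 0.757 FPKM in GoF, 0.810 to 2.23 FPKM in LoF, and 2.59 and 1.04 FPKM in WT. Egln3, a hypoxia-induced prolyl hydroxylase, was listed at 0 in GoF, WT and LoF library 1, with 0.742 to 0.919 FPKM in LoF libraries 2, 3 and 4. HIF activity is set largely by protein stability, which FPKM does not measure.

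Among the hypoxia targets on the list, 1 of 5 tested genes rose in GoF against LoF, where 5.97% of all tested genes rose. Ndrg1 encodes a stress-responsive cytosolic protein induced by hypoxia and differentiation (chr15:66929321-66969640). Its level was 79.2 and 46.5 FPKM in GoF, 11.3, 4.16, 5.10 and 9.09 FPKM in LoF, and 6.60 and 14.2 FPKM in WT. Both GoF libraries stood above the other 6, while LoF and WT overlapped. The log2 fold change of GoF against LoF was 2.96 ± 0.48 (SE; 95% interval 1.90 to 4.03; limma, adjusted p = 0.00368), a ratio of means of 8.47. The call was lost without GoF library 1 and with the replicate number as a block (adjusted p 0.00308 to 0.0616 over 17 alternatives).

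Higd1a, a mitochondrial protein induced by hypoxia, had 36.8 and 32.9 FPKM in GoF, 17.1, 20.2, 15.0 and 18.8 FPKM in LoF, and 18.8 and 19.0 FPKM in WT. Both GoF libraries were above the other 6, which lay close together. Its log2 fold change in GoF against LoF was 0.94 ± 0.29 (SE; limma, adjusted p = 0.0654). Bnip3 and Bnip3l encode related receptors for the removal of mitochondria. Bnip3 had 21.5 and 11.6 FPKM in GoF, 3.99, 7.70, 2.65 and 13.3 FPKM in LoF, and 5.85 and 8.87 FPKM in WT. Bnip3l had 39.0 and 44.3 FPKM in GoF, 53.9, 75.5, 60.1 and 73.3 FPKM in LoF, and 30.7 and 45.3 FPKM in WT. All LoF libraries were above the other 4 for Bnip3l, a gene also abundant in maturing red cells, and neither gene passed. Summed erythroid markers were 896 to 1838 FPKM in GoF, 76.0 to 2274 FPKM in LoF and 2559 to 10573 FPKM in WT. The part of red cells in the Bnip3l values was not tested. Ankrd37, a small HIF target, ranged from 0 to 4.32 FPKM without order between groups, with 3 of 8 libraries listed at 0. Car9, a carbonic anhydrase and common hypoxia marker, was listed at 0 in all 8 libraries.

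**Figure D3:**
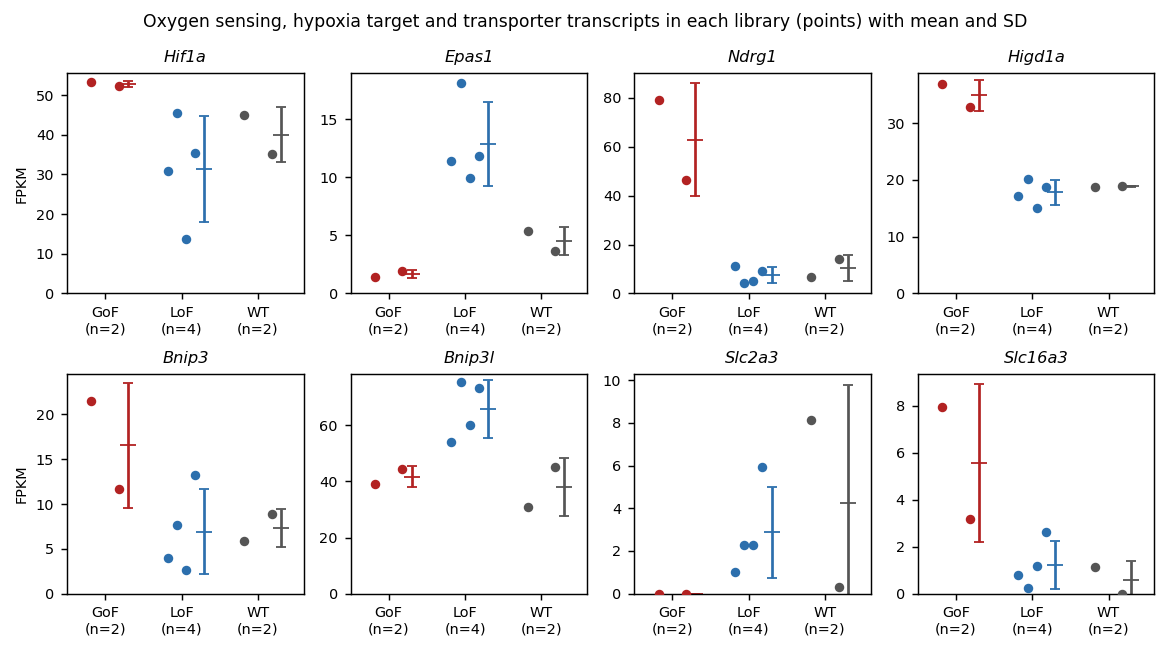
FPKM of oxygen-sensing, hypoxia target and transporter genes in each library (points) by group, with the mean and SD beside them (GoF n = 2, LoF n = 4, WT n = 2) on linear axes from 0, below which bars are not drawn. Epas1 and Bnip3l are highest in the 4 LoF libraries, and Hif1a, Ndrg1 and Higd1a in the 2 GoF libraries.

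Against WT, the GoF libraries had higher Pkm, Ndrg1 and Ldhb transcripts, which are 3 of the 4 genes that also rose against LoF. In GoF against WT, 3 of 32 genes rose and 0 fell (limma, Benjamini-Hochberg adjusted p under 0.05), with 7 at an unadjusted p under 0.05, all of them higher in GoF. The share of all tested genes at that unadjusted threshold is not given here, so the 7 cannot be set against it. Of all tested genes, 2.31% were called, 1.41% higher and 0.9% lower. Libraries of GoF and WT did not overlap for 21 of 32 genes (65.6%), 17 of them above, against 48% of all tested genes. The median log2 fold change was 0.50 over the list and -0.08 over all tested genes. Pkm had a log2 fold change of 1.60 ± 0.34 (SE; limma, adjusted p = 0.0429) and a ratio of means of 3.06. For Ndrg1 the log2 fold change was 2.52 ± 0.55 (SE; limma, adjusted p = 0.0466) and the ratio of means 6.05. For Ldhb these were 1.74 ± 0.36 (SE; limma, adjusted p = 0.0377) and 3.46. None was called when only GoF and WT entered the fit, with no mean-variance trend, with the replicate number as a block, with sex as a covariate, or without any 1 of the 4 GoF and WT libraries. Single LoF libraries also ended calls: LoF 1 or 4 for Pkm, LoF 2 or 4 for Ndrg1 and LoF 2 for Ldhb. Their adjusted p in limma reached 0.252 for Pkm, 0.371 for Ndrg1 and 0.255 for Ldhb over 17 alternatives. GoF and LoF, and GoF and WT, are compared with the same 2 GoF libraries, so the 2 sets of calls are not independent.

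LoF libraries did not differ from WT at any listed gene past the threshold. In LoF against WT, 0 of 32 genes rose and 0 fell (limma, adjusted p under 0.05), with 4 at an unadjusted p under 0.05. These 4 also have no share of all tested genes at the unadjusted threshold beside them. Of all tested genes 1.23% were called, 0.566% higher and 0.667% lower, or 73 and 86 genes, against 80 and 147 with quantile normalization. The 4 genes were Epas1, Pfkp and Bnip3l, higher in LoF, and Slc16a1, lower in LoF. Epas1 was 12.8 ± 3.62 FPKM in LoF and 4.50 ± 1.20 FPKM in WT (SD, n = 4 and 2), with a log2 fold change of 1.31 (95% interval 0.40 to 2.23; limma, adjusted p = 0.182). Pfkp was 8.39 ± 1.88 FPKM in LoF and 3.00 ± 0.489 FPKM in WT, with a log2 fold change of 1.22 (95% interval 0.16 to 2.27; limma, adjusted p = 0.292). Bnip3l was 65.7 ± 10.4 FPKM in LoF and 38.0 ± 10.3 FPKM in WT. Slc16a1 was 2.40 ± 0.275 FPKM in LoF and 6.71 ± 3.04 FPKM in WT. LoF and WT libraries did not overlap for 8 of 32 genes (25.0%), against 21.4% of all tested genes. The median log2 fold change was -0.05 over the list and 0.06 over all genes.

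Among the 4 libraries with Y-linked transcripts, GoF libraries minus LoF libraries 2 and 3 gave log2 differences of 2.21 for Pkm, 3.46 for Ndrg1, 1.31 for Ldhb and 1.06 for Aldoa. The same differences were -2.46 for Epas1 and -1.64 for Pfkp. GoF and LoF libraries of these 6 genes did not overlap in the full set, which fixes the sign in any subset. With sex as a covariate, Pkm and Ndrg1 were called higher and Epas1 lower in GoF against LoF. The adipocyte marker sum was at least 510 FPKM in each LoF library and at most 4.44 FPKM in each GoF library. Its part in these differences was not tested.

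Within gene families, the share of each paralog in a family's summed FPKM does not depend on how libraries are scaled. Hif1a made up 97.5% and 96.5% of Hif1a plus Epas1 in GoF, 73.0%, 71.5%, 57.7% and 75.0% in LoF, and 89.3% and 90.6% in WT. The 3 groups did not overlap in this share. Ldhb made up 16.4% and 20.3% of both Ldh transcripts in GoF, 12.7%, 15.1%, 10.6% and 8.22% in LoF, and 4.79% and 6.07% in WT, again without overlap. Pfkp made up 9.49 ± 6.20% of phosphofructokinase transcripts in GoF, 39.8 ± 17.8% in LoF and 19.1 ± 5.14% in WT (SD, n = 2, 4 and 2). Bnip3 made up 28.1 ± 10.4% of Bnip3 plus Bnip3l in GoF, 8.92 ± 4.74% in LoF and 16.2 ± 0.286% in WT. Hk1 made up 27.0 ± 2.59% of hexokinase transcripts in GoF, 13.8 ± 5.12% in LoF and 16.7 ± 10.2% in WT. Among the shares tested, those of Hif1a, Ldhb, Bnip3, Hk1 and Slc2a1 were higher in both GoF libraries than in all LoF libraries. With 2 against 4 libraries, the smallest two-sided p of an exact permutation test is 0.133, which these 5 shares reached (0.320 after Benjamini-Hochberg adjustment over 12 families), so the design cannot reach 0.05. The test took the first-listed gene of each family, so Pfkl was tested and Pfkp was not. In families of more than 2 genes, the untested shares of Pfkm and Pdk3 were also higher in both GoF libraries than in all LoF libraries. Those of Pfkp, Pdk4 and Pfkfb1 were lower. Eno1 and Aldoa made up at least 94.6% and 98.0% of their families in all 8 libraries.

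**Figure D4:**
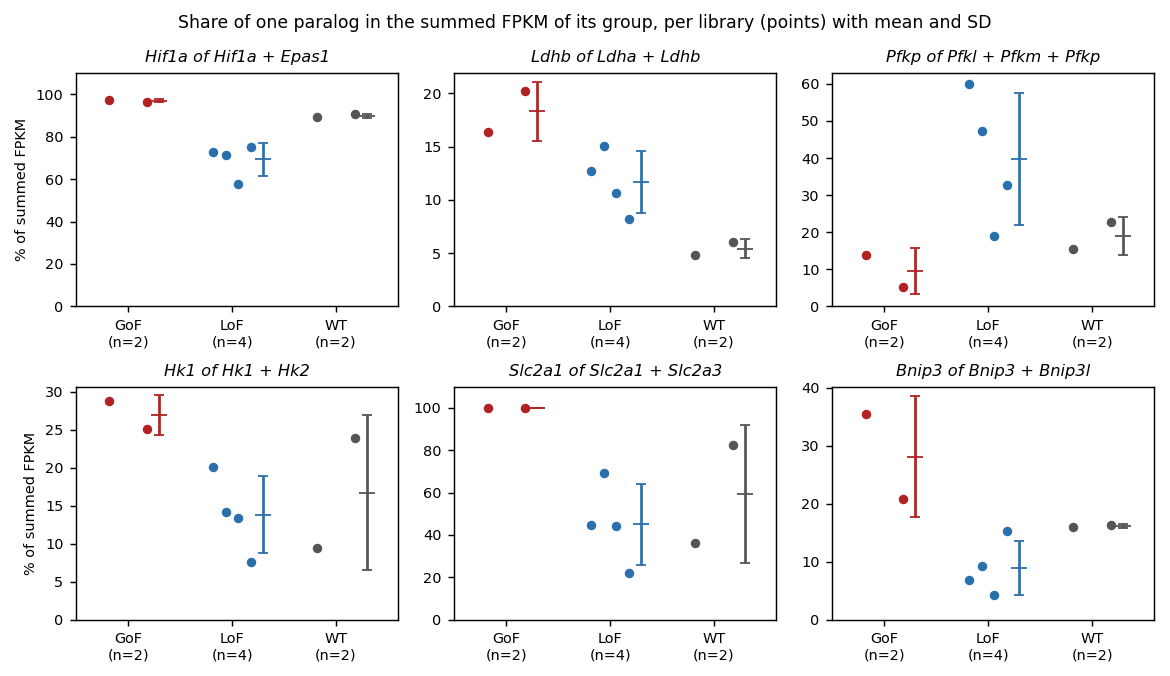
Share of 1 paralog in the summed FPKM of its family (vertical axis, percent) in each library (points) by group, with the mean and SD beside them (GoF n = 2, LoF n = 4, WT n = 2). The Hif1a share is 96.5% or more in GoF and 75.0% or less in LoF, and the Ldhb share falls in the order GoF, LoF, WT without overlap.

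Genes around the listed ones were read from further lists of the same pathways. These lists were chosen with earlier results of these data known, so their shares of called genes only describe them. Of 20 tested hypoxia targets outside the main list, 8 (40.0%) rose and 1 fell in GoF against LoF (limma, adjusted p under 0.05), against 5.97% higher and 5.68% lower among all tested genes. The genes that rose included those of collagen maturation: the prolyl hydroxylase subunits P4ha1 and P4ha2, the lysyl hydroxylase Plod2 and the lysyl oxidase Lox. P4ha1 had 465 and 441 FPKM in GoF, 14.1, 12.6, 15.0 and 19.8 FPKM in LoF, and 92.7 and 83.6 FPKM in WT. P4ha2 had 293 and 330 FPKM in GoF, 11.5, 9.17, 13.5 and 10.7 FPKM in LoF, and 57.7 and 60.4 FPKM in WT. For both genes the groups did not overlap, with WT between GoF and LoF. Their log2 fold changes in GoF against LoF were 4.81 ± 0.27 and 4.69 ± 0.27 (SE; limma, adjusted p = 2.29e-05 and 2.43e-05), larger than that of any glycolytic enzyme. Both also passed as higher in GoF than in WT and as lower in LoF than in WT, and all 3 comparisons share libraries. Among bone matrix genes, Ibsp moved in the same direction and Spp1 in the opposite one. Ibsp, a bone sialoprotein gene, had 7467 and 10674 FPKM in GoF, 320 to 823 FPKM in LoF, and 5194 and 3564 FPKM in WT. Spp1 had 1200 and 1940 FPKM in GoF, 7823 to 11845 FPKM in LoF, and 4236 and 3450 FPKM in WT. Of the 10 markers of hypertrophic chondrocytes and their descendants, 6 rose (Ihh, Ibsp, Alpl, Panx3, Phospho1 and Sp7) and 2 fell (Mmp13 and Spp1) in GoF against LoF (limma), where 5.97% of all tested genes rose and 5.68% fell. Their sum was 9711 to 13893 FPKM in GoF, 13079 to 17254 FPKM in LoF and 8988 to 12046 FPKM in WT, and their part in the collagen enzyme differences was not tested.

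Plod2 had 132 and 151 FPKM in GoF, 9.64 to 21.3 FPKM in LoF, and 47.8 and 57.6 FPKM in WT. Lox had 294 and 242 FPKM in GoF, 32.5 to 73.9 FPKM in LoF, and 201 and 159 FPKM in WT. Both rose in GoF against LoF and fell in LoF against WT (limma, adjusted p = 0.0430 for Plod2 and 0.0416 for Lox in LoF against WT). In LoF against WT, 0 of the 20 rose and 4 fell, against 0.566% higher and 0.667% lower among all tested genes. Of 17 alternatives 13 called P4ha1, 11 P4ha2, 3 Lox and 2 Plod2. The P4ha1 call was lost without WT library 2 and the P4ha2 call without either WT library (limma, adjusted p 0.0565 to 0.120). Lox was lost without any 1 library but LoF 3, and Plod2 without any 1 of the 8 (limma, adjusted p 0.0503 to 0.334). The transcriptional repressor Bhlhe40 had 39.9 and 46.1 FPKM in GoF, 2.34 to 7.72 FPKM in LoF, and 19.7 and 15.1 FPKM in WT, and rose in GoF against LoF. Car12, a membrane carbonic anhydrase related to Car9, had 96.4 and 55.0 FPKM in GoF, 0 to 1.15 FPKM in LoF, and was listed at 0 in WT. It rose against both groups. Stc2, a secreted stanniocalcin, and Ak4, a mitochondrial adenylate kinase, rose in GoF against LoF at low levels of 1.64 to 3.25 FPKM in GoF and at most 0.506 FPKM in LoF, and the Stc2 call was lost without LoF library 2 (limma, adjusted p = 0.0642). Angptl4, a lipoprotein lipase inhibitor of adipose and hypoxic cells, had 4.08 and 9.68 FPKM in GoF, 56.4, 59.4, 83.9 and 84.8 FPKM in LoF, and 29.9 and 23.6 FPKM in WT. It fell in GoF against LoF by 3.27 ± 0.37 on the log2 scale (SE; limma, adjusted p = 0.000478). In GoF against WT, 3 of the 20 rose (P4ha1, P4ha2 and Car12) and 1 fell, against 1.41% higher and 0.9% lower among all tested genes. The call that fell, Angptl4 (limma, adjusted p = 0.0498), was lost without any 1 library (0.0522 to 0.398). The P4ha1 and P4ha2 calls against WT were each lost without any 1 of 3 libraries (GoF 1 and WT 1 for both, WT 2 for P4ha1 and GoF 2 for P4ha2; limma, adjusted p 0.0506 to 0.0745). Adipocyte markers summed to at most 4.44 FPKM in GoF and at least 510 FPKM in LoF, and their part in the Angptl4 difference was not tested. Mif, with the highest mean of these genes over the 8 libraries pooled, had 173 and 231 FPKM in GoF, 146 to 252 FPKM in LoF, and 163 and 165 FPKM in WT, and did not pass. The median log2 fold change of the 20 genes was 0.92 in GoF against LoF, 0.68 in GoF against WT and -0.07 in LoF against WT.

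**Figure D5:**
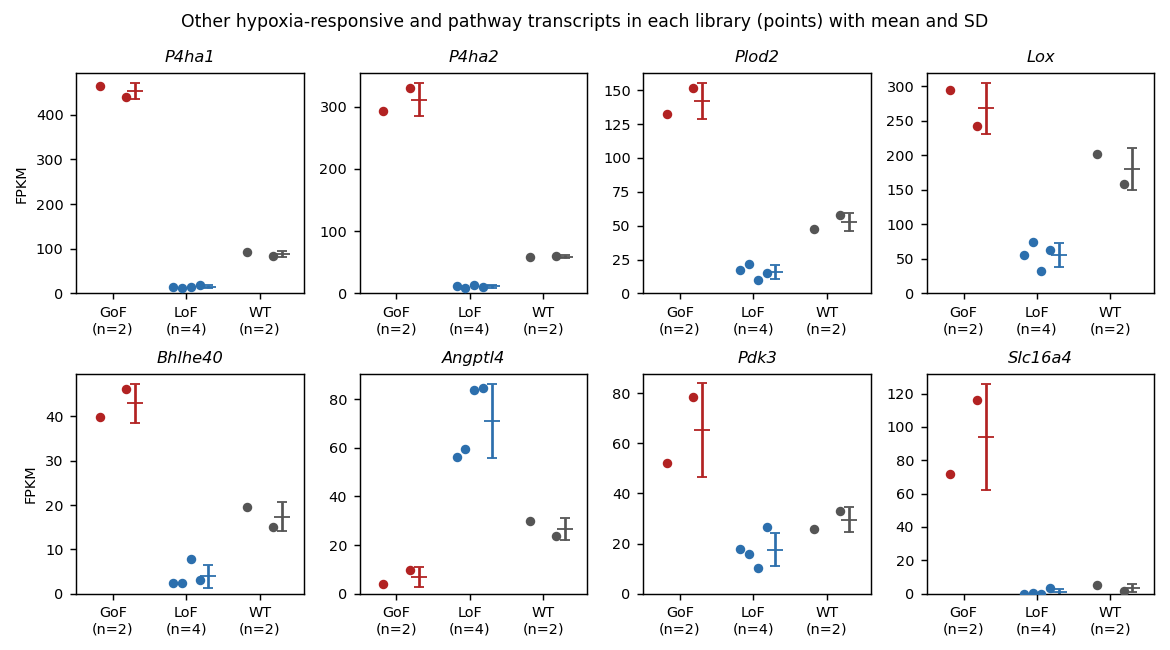
FPKM of hypoxia target and pathway genes outside the main list in each library (points) by group, with the mean and SD beside them (GoF n = 2, LoF n = 4, WT n = 2) on linear axes from 0. P4ha1, P4ha2, Plod2, Lox and Bhlhe40 run in the order GoF, WT, LoF without overlap, and Angptl4 in the reverse order.

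Of 12 tested genes of pyruvate oxidation 1 rose in GoF against LoF, where 5.97% of all tested genes rose. This gene, Pdk3, a pyruvate dehydrogenase kinase, had 52.2 and 78.6 FPKM in GoF, 10.2 to 26.5 FPKM in LoF, and 25.9 and 33.0 FPKM in WT (limma, adjusted p = 0.0121). The call was lost without either GoF library (limma, adjusted p 0.0539 to 0.133). Pdk3 made up 69.9 ± 4.57% of the Pdk transcripts in GoF, 47.9 ± 10.7% in LoF and 57.2 ± 1.72% in WT. Mpc1 and Mpc2, which carry pyruvate into mitochondria, had the highest means of that list over the 8 libraries pooled and did not pass. Of 11 other tested transporters and paralogs, 3 rose in GoF against LoF (27.3%, against 5.97% of all tested genes). Slc16a4, a monocarboxylate transporter family member, had 71.5 and 116 FPKM in GoF, 0, 0.502, 0 and 3.33 FPKM in LoF, and 4.97 and 1.52 FPKM in WT. Its log2 fold change was 5.85 ± 0.67 against LoF (SE; limma, adjusted p = 0.000528) and 4.57 ± 0.77 against WT (limma, adjusted p = 0.0147), and 9 of 17 alternatives called it against WT. The call against WT was lost without any 1 of the 4 GoF and WT libraries (limma, adjusted p 0.0652 to 0.120). Slc16a7, another monocarboxylate transporter, and Slc2a10, a glucose transporter family member linked to arterial connective tissue, rose in GoF against LoF (limma, adjusted p = 0.0355 and 0.0360). Both calls were lost without either GoF library, LoF library 1 or LoF library 2, Slc16a7 also without LoF library 3, and Slc2a10 also without either WT library (limma, adjusted p 0.0566 to 0.234). Slc2a10 was 9.43 ± 0.365 FPKM in GoF, 2.33 ± 1.01 FPKM in LoF and 9.04 ± 1.61 FPKM in WT, so GoF and WT lay together. Bpgm, which makes the red cell effector bisphosphoglycerate, ranged from 4.67 to 35.7 FPKM and did not pass.

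Of 12 tested genes of gluconeogenesis and glycogen, Pck2 and G6pc3 rose in GoF against LoF (16.7%, against 5.97% of all tested genes). Pck2, the mitochondrial phosphoenolpyruvate carboxykinase, had 39.5 and 32.2 FPKM in GoF, 2.24 to 7.97 FPKM in LoF, and 11.2 and 11.8 FPKM in WT (limma, adjusted p = 0.00393). G6pc3, a broadly expressed glucose phosphatase subunit, had 20.3 and 28.4 FPKM in GoF, 4.76 to 8.21 FPKM in LoF, and 13.3 and 10.6 FPKM in WT (limma, adjusted p = 0.0104). For both, WT lay between GoF and LoF without overlap. The Pck2 call was lost without GoF library 1 (limma, adjusted p = 0.0590) and the G6pc3 call without either GoF library (limma, adjusted p 0.0693 to 0.137). Ugp2, an enzyme of glycogen synthesis with the highest mean of that list over the 8 libraries pooled, had 19.3 and 12.3 FPKM in GoF, 15.6 to 39.1 FPKM in LoF, and 15.6 FPKM in each WT library. None of 8 pentose phosphate genes, 7 upstream regulators or 6 other oxygen-sensing genes passed in any of the 3 comparisons (limma). At an unadjusted p under 0.05 in GoF against LoF there was 1 in each of these 3 lists. For LoF against WT the numbers were 0, 2 and 1, and for GoF against WT they were 0 in all 3. No share of all tested genes at the unadjusted threshold is given beside these numbers. Pgls and Taldo1 of the pentose phosphate pathway, Txnip and Akt2 upstream of glucose uptake, and Egln2 and Arnt of oxygen sensing were their most abundant members.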

How the data were processed

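RNA of 70-cell pools was amplified with Smart-seq2. The authors deposited gene-level FPKM, and per the submitters' processing notes HISAT2, SAMtools 0.1.18, Cufflinks, HTSeq and build mm10 were used, with no role or order named. An annotation release is not given in the sources used here. Smart-seq2 does not mark strand, so overlapping and antisense genes share reads. Coordinates are 1-based; the deposited starts count from 0. Repeated gene IDs (65 of 48555 lines, identical values) were dropped.

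Values were used as log2(FPKM + 1), which understates changes of low genes. Genes with at least 1 FPKM in at least 2 of 8 libraries entered 1 limma fit (version 3.58.1, R version 4.3.3) with group means and a mean-variance trend (10.1 total degrees of freedom, 5.09 from the prior), two-sided, and called at a Benjamini-Hochberg adjusted p under 0.05 over all 12888 genes. Read depth is unknown, so no counting intervals were given; relative depth read from low values was 0.901 to 1.16 of WT library 2. Groups came from the labels. The code was tested on simulated data.

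The listed genes and the further lists were chosen with earlier results of these data known. Named were all 34 genes, called genes of the further lists, the 2 most abundant of each, Ctnnb1, Col10a1 and marker lists; Axin2 was added after its values were seen. Alternatives were another pseudocount, no filter, 2 scalings, other fits, sex, a replicate block and libraries left out. Promoters came from RefSeq. Protein sequences were not used here.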

Additional observations from a re-analysis of the deposited data

Results flagged for a closer look

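Of 51 values checked in the 4 LoF libraries, 5 had a library far from the other 3. Chance flags about 1 in 20 groups of independent, normally distributed values. Sums and shares repeat values of the single genes, so the 5 are not separate events and cannot be set against that rate. Groups of 2 libraries were not checked. Ldha was at 359 FPKM in LoF library 4, against 168 FPKM in the nearest LoF library, and the summed lactate dehydrogenases were at 392 FPKM in that library, against 194 FPKM in the nearest. Eno2 was at 1.46 FPKM in LoF library 4 and listed at 0 in the other LoF libraries, so the share of Eno1 among enolases was lowest there, at 99.2%. Egln1 made up 19.5% of the summed Egln1, Egln2 and Egln3 in LoF library 2, against 11.0% in the nearest LoF library. The causes were not tested.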

How the results depend on the processing

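Among called genes of the list and of the further pathway lists, no difference changed sign under the alternatives run (17 each, 15 for Ak4 and Stc2). Genes called in GoF against LoF numbered 727 with the replicate number as a block, 974 with sex as a covariate, 848 without LoF libraries 2 and 3, and 414 to 1400 when each library was left out in turn. Listed genes called higher in that comparison numbered 2 without a mean-variance trend, with only the groups compared, the block, sex, or without LoF libraries 2 and 3, and 1 to 4 leaving out each library. Those called lower numbered 1 with no filter, quantile normalization, median ratio scaling, the block, only the groups compared, sex, or without LoF libraries 2 and 3, and 0 to 1 leaving out each library. Genes called in LoF against WT numbered 83 with a pseudocount of 0.1, 53 with no filter, 0 with only the groups compared, 54 with no trend, 1 with the block, 14 with sex, 0 without LoF libraries 2 and 3, and 3 to 135 leaving out each library; listed genes called stayed at 0 throughout. Genes called in GoF against WT numbered 0 with only the groups compared, 15 with the block, 11 with sex, 186 without LoF libraries 2 and 3, and 48 to 337 leaving out each library. Listed genes called higher there numbered 1 with a pseudocount of 0.1, no filter, quantile normalization or without LoF libraries 2 and 3, 0 with only the groups compared, no trend, the block or sex, and 0 to 3 leaving out each library. With median ratio scaling the WT mean of summed enzymes was 883 FPKM. The causes were not tested. Same-numbered libraries did not deviate together (correlations -0.007 to 0.030), so the block pairs numbers only. Numbers 3 and 4 occur only in LoF, so with the block, comparisons with LoF rested on LoF libraries 1 and 2. With 2 libraries in GoF and in WT, most calls near the threshold rest on single libraries, and the pooled fit assumes that they vary like LoF.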
